A study of Mus musculus with 77 samples.

Results

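Blood mRNA of 5 stress-susceptible B6 mice was compared with that of 5 stress-resilient B6 mice over all 13084 genes of the deposited blood table. These 10 libraries were chosen by strain and phenotype label alone, from 25 blood mRNA libraries and 77 samples of the whole series. All were male B6 mice (C57BL/6Crl in the sample labels, C57BL/6NCrl in the study's methods) aged 8 weeks at dissection, and both groups had gone through chronic social defeat stress (CSDS), in which a mouse is confronted daily with a larger aggressor. Blood was taken 6 to 8 days after the last defeat. The study divided the defeated mice by their social interaction ratio in a social avoidance test, susceptible mice being those that avoided an unfamiliar aggressor, and took phenotypic extremes for sequencing. The groups are therefore defined by behavior within 1 inbred strain and carry no engineered allele. Undefeated B6 mice (n = 5), housed beside an unfamiliar neighbor without physical contact, are set beside the 2 groups as the background level. Each library came from trunk blood of 1 mouse, and globin and ribosomal RNA were depleted before sequencing.

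Whole blood RNA is a mixture. Young red cells and platelets carry large amounts of RNA without a nucleus, while neutrophils, monocytes and lymphocytes add their own transcripts in proportion to their number and RNA content. Repeated social defeat is known to release myeloid cells from the bone marrow into the blood, and glucocorticoids released under stress move lymphocytes out of it. In such bulk samples fewer cells of a type and less RNA per cell cannot be told apart.

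The libraries were those of blood. Levels are given as log2 CPM, the log2 of read counts (CPM) relative to a library size that the authors had scaled for composition. The heme synthesis enzyme Alas2 lay between 15.40 and 17.57 log2 CPM over the 10 mice, the beta globin Hbb-bs between 13.50 and 16.05, the pan-leukocyte gene Ptprc between 9.32 and 10.38, the platelet chemokine Pf4 between 9.07 and 10.91 and the neutrophil gene S100a8 between 8.53 and 10.69. For each of these genes the ranges of susceptible and resilient mice overlapped. Reads on the retained genes ranged from 9751603 to 14947438 in susceptible mice and from 11757239 to 15878495 in resilient mice. The first 3 principal components held 38.58%, 17.65% and 12.66% of the variance, and the groups overlapped on each of them. On the first, susceptible mice 3, 4 and 5 and resilient mouse 1 had scores between -70.10 and -29.43, and the other 6 mice between 12.43 and 53.78.

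Those 4 libraries were also the ones rich in transcripts of the submandibular salivary gland, 3 from susceptible mice and 1 from a resilient mouse. These lists were drawn up after their values were seen. Egf, a growth factor made in large amounts by the ducts of the male submandibular gland, was at 0.14, 0.01, 7.97, 8.76 and 7.20 log2 CPM in susceptible mice 1 to 5. In resilient mice 1 to 5 it was at 9.72, 0.64, 0.40, -0.99 and -0.41. The gland kallikrein Klk1b26 had between 964 and 7284 reads in susceptible mice 3, 4 and 5 and in resilient mouse 1, and 0 reads in the other 6. All 18 submandibular gland genes looked at (among them Egf, Crisp3 and several kallikreins) were highest in these 4 libraries.

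Genes of the secretory acini divided the mice a little differently. Bpifa2, the parotid secretory protein, was at 8.51, -5.12, 6.94, 6.72 and 6.42 log2 CPM in susceptible mice 1 to 5 and at 9.71, -4.01, -4.36, -4.69 and -3.96 in resilient mice 1 to 5. Salivary amylase, Amy1, showed the same division, so acinar transcripts were abundant in 4 of 5 susceptible mice and 1 of 5 resilient mice. None of the 18 submandibular and 8 acinar genes was called between the groups: Egf differed by 2.95 ± 2.03 (log2, SE; exact permutation p = 0.437) and Bpifa2 by 6.16 ± 3.44 (exact permutation p = 0.206). Control mouse 5 carried both kinds of transcript as well (Egf 9.01 and Bpifa2 5.97 log2 CPM), and so did control mouse 3 (4.10 and 7.50).

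**Figure D1:**
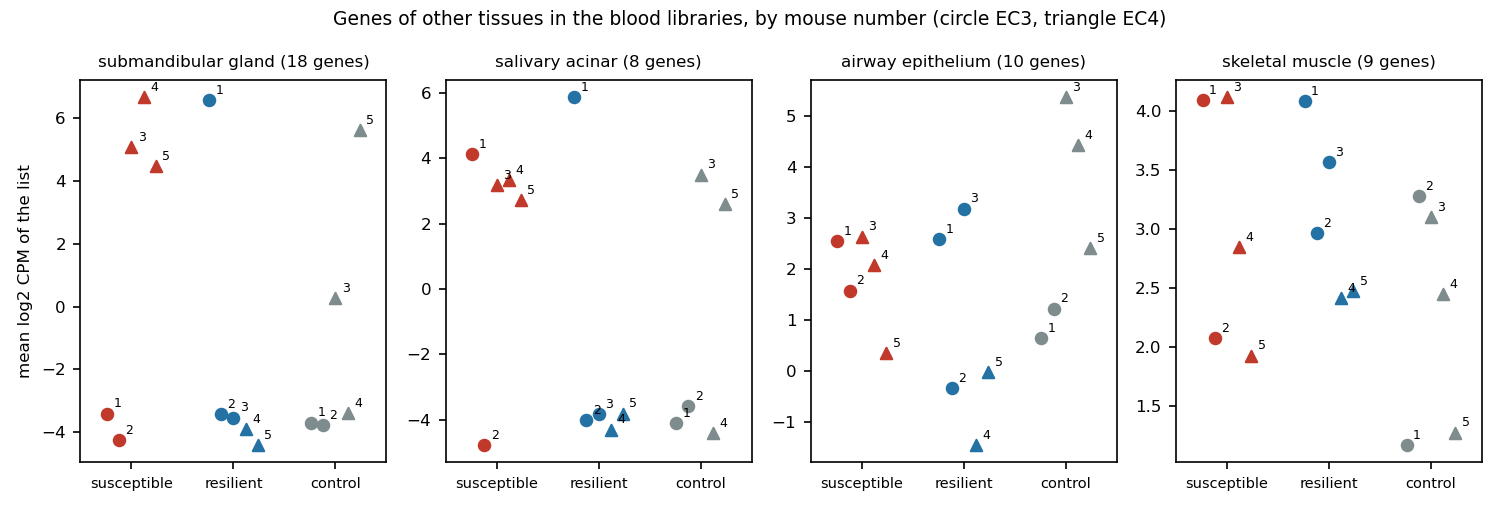
Mean log2 CPM of 4 lists of genes of other tissues (vertical axes) in each B6 mouse, with 5 susceptible, 5 resilient and 5 control mice numbered as in the text; circles are mice with the title prefix EC3 and triangles with EC4. Submandibular gland genes lie at 4.48 or above in susceptible mice 3, 4 and 5 and resilient mouse 1 and at -3.42 or below in the other 6 defeated mice, and acinar genes are high in the same mice and in susceptible mouse 1.

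Airway and muscle transcripts also varied between mice, without such a division. The airway epithelium list (10 genes, among them Bpifa1 and the secretoglobin Scgb1a1) ranged from 0.36 to 2.64 in susceptible and from -1.44 to 3.19 log2 CPM in resilient mice. The skeletal muscle list (9 genes, among them Acta1, Ckm and Ttn) lay between 1.93 and 4.11 in susceptible and between 2.41 and 4.08 in resilient mice, and it was highest in susceptible mice 1 and 3 and resilient mouse 1. Susceptible mouse 1 also had the highest mature neutrophil list (5.80 log2 CPM, against 3.77 to 4.50 in the other 9 defeated mice), the lowest ribosomal protein list (7.34, against 7.69 to 7.98) and the fewest reads.

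Across the transcriptome, little separated susceptible from resilient blood. By the study's criteria, an unadjusted p under 0.05 in limma and a fold change of at least 1.2, 266 genes were called, which is 2.03% of those tested. Of these, 147 were higher (1.12% of all genes) and 119 lower (0.91%) in susceptible mice. An unadjusted p under 0.05 was reached by 283 genes (2.16%), a share below the 5% that this threshold passes by chance. No gene had an adjusted p under 0.05 (smallest adjusted p = 0.9998 from limma). The exact permutation test over the 10 mice gave a p under 0.05 for 215 genes, likewise a share below 5%. The median log2 fold change of all genes was -0.01.

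The called genes were mostly of low abundance. Their median level was 1.52 log2 CPM against 3.25 for all genes, and 59.8% of them lay under 2 log2 CPM against 31.6% of all genes. Of the 4998 genes at 4 log2 CPM or above, 17 were called. For the called genes the size of the log2 fold change had a median of 0.61, with a lowest value of 0.26 and a highest of 3.39. Which direction held the majority depended on the scaling: 55.3% of the called genes were higher in susceptible mice on the deposited values, against 35.8% after quantile normalization and 75.5% when libraries were scaled to total reads.

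**Figure D2:**
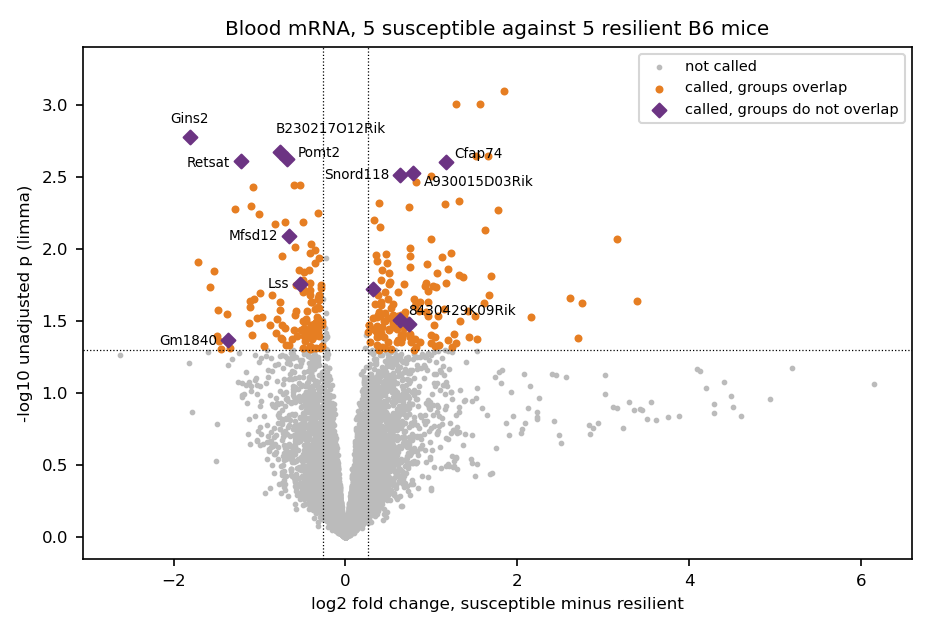
Each point is 1 of 13084 genes, with the log2 fold change (susceptible minus resilient) on the horizontal axis and -log10 of the unadjusted limma p on the vertical axis; dotted lines mark a p of 0.05 and a fold change of 1.2. The 266 called genes are colored, the 13 of them whose 5 susceptible and 5 resilient values do not overlap are diamonds, and the grey points at the far right include the salivary gland genes, which did not reach the threshold.

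Among the called genes with the largest positive log2 fold changes were epithelial genes. Krt18, a keratin of simple epithelia, was at 1.24, -0.07, 4.65, 6.01 and 3.74 log2 CPM in susceptible mice and at 5.75, -1.20, 0.50, -2.37 and -0.68 in resilient mice. Its log2 fold change was 2.71 ± 1.26 (SE; exact permutation p = 0.167). Lad1, which anchors epithelia to the basement membrane, differed by 3.16 ± 1.11 (exact permutation p = 0.0873), with 0 reads in resilient mice 2, 3 and 4. These values followed Egf across mice: 8 of the 266 called genes and 233 of all genes had a correlation with Egf above 0.8 over the 10 mice, a description since the mice share their gland transcripts. The 8 were Krt18, Lad1, the epithelial transcription factor Ehf, the creatine transporter Slc6a8, Atp13a5, Hook2, Rbm47 and Sec31a, all higher in susceptible mice. Leaving out the 4 gland-rich libraries kept 2 susceptible mice, both with the title prefix EC3. Susceptible mouse 1, kept there, still carried acinar transcripts (acinar list 4.13 log2 CPM, against -4.30 to -3.81 in the resilient mice kept). In that fit the log2 fold changes of these 8 genes were between 0.60 (Sec31a) and 2.95 (Atp13a5). Fits with the submandibular or the acinar level as a term, and a fit without the 5 acinar-rich libraries, were also run over all genes. Their values for these 8 genes are not given here, and the cause of the difference was not tested.

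Of the genes named by rule on the higher side, the ciliary gene Cfap74, the small nucleolar RNA Snord118 and the antisense transcript A930015D03Rik separated the 2 groups completely. In all, 24 genes (0.183% of those tested) had 5 susceptible and 5 resilient values that did not overlap, 7 of them higher (0.0535%) and 17 lower (0.13%) in susceptible mice, and 13 of the 24 were called. Complete separation corresponds to an exact permutation p of 0.00794, the smallest that 5 against 5 mice allow. Chance alone separates on average a fraction of 0.00794 of genes, so the 0.183% seen lies below the share that chance gives.

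Cfap74 (ENSMUSG00000078490, chromosome 4 of GRCm38 from 155409190 to 155466823), which codes for a protein of motile cilia and flagella, was at 0.70, 0.01, 0.50, 1.03 and -0.16 log2 CPM in susceptible mice 1 to 5. In resilient mice 1 to 5 it was at -1.45, -0.84, -0.66, -0.44 and -0.41, so that every resilient mouse lay below every susceptible mouse. The means were 0.42 ± 0.49 and -0.76 ± 0.42 (SD, n = 5 each), a 2.26-fold difference resting on 8 to 32 and 3 to 17 reads. The control mice (0.50 ± 0.56) lay with the susceptible mice on average.

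Snord118, the U8 small nucleolar RNA needed for the maturation of ribosomal RNA (ENSMUSG00000064899, chromosome 11 from 69073427 to 69073561), was at 2.54, 2.73, 3.31, 2.63 and 2.91 log2 CPM in susceptible mice. It was at 1.42, 2.44, 2.44, 2.47 and 2.17 in resilient mice, where mouse 1 was lowest and the other 4 lay just below the susceptible range. The log2 fold change was 0.64 ± 0.19 (SE), and 0.26 without the 4 gland-rich libraries. A930015D03Rik (chromosome 17 from 35994453 to 36038435) was at 0.01 ± 0.26 in susceptible and -0.78 ± 0.27 log2 CPM in resilient mice (SD, n = 5 each), on 5 to 23 reads. Whether reads on the opposite strand were excluded in counting is not stated, so its level cannot be told apart from that of genes it overlaps.

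Other genes on the higher side overlapped by 1 or a few mice. Celsr1, an atypical cadherin of planar cell polarity (ENSMUSG00000016028, chromosome 15 from 85898929 to 86033777), was at 2.71, 1.98, 1.42, 1.42 and 1.24 log2 CPM in susceptible and 0.50, 0.95, 0.03, 0.98 and 1.30 in resilient mice. Only resilient mouse 5 reached the susceptible range, and the difference was 2-fold (log2 fold change 1.00 ± 0.31, SE; exact permutation p = 0.0159). Rab1b, a small GTPase of transport from the endoplasmic reticulum to the Golgi, was the most abundant of the genes named by the smallest p on the higher side. It was at 3.94, 3.65, 3.66, 3.65 and 3.60 log2 CPM in susceptible mice and at 3.08, 3.13, 3.47, 3.26 and 3.63 in resilient mice (exact permutation p = 0.0159). Here again resilient mouse 5 lay inside the susceptible range, and the difference of 0.39 ± 0.13 (log2, SE) was not called when libraries were scaled to total reads (0.42).

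The kinetochore gene Cenpt was at 1.37 ± 0.54 in susceptible and 0.09 ± 0.80 log2 CPM in resilient mice (SD, n = 5 each; exact permutation p = 0.0317). Senp8, a protease that removes the ubiquitin-like modifier NEDD8, was at 1.29 ± 0.31 and 0.47 ± 0.49 (exact permutation p = 0.0317). The retinol dehydrogenase Rdh5 was at 0.02 ± 0.34 and -1.51 ± 0.92 (exact permutation p = 0.0238). The non-coding transcripts 1700048O20Rik (log2 fold change 1.85 ± 0.48, SE), Gm37726 (1.66 ± 0.49) and Gm29438 (1.32 ± 0.42) and the coding gene 4930432K21Rik (1.57 ± 0.42) were also higher, each on at most 36 reads in a mouse. 8430429K09Rik (0.64 ± 0.28) and ENSMUSG00000051107 (0.74 ± 0.33) did not overlap between groups either, but each lost its call when any of 4 single mice was left out, with values down to 0.46 and 0.62.

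On the lower side, a replication factor, a retinol saturase, a mannosyltransferase and a long non-coding RNA were among the genes with complete separation. Gins2, a subunit of the GINS complex of the replicative helicase (ENSMUSG00000031821, chromosome 8 from 120578633 to 120589304), was at -0.80, -0.59, -4.25, -1.29 and -1.93 log2 CPM in susceptible mice 1 to 5. The resilient values were 0.14, -0.55, -0.27, 0.86 and 0.01. Susceptible mouse 3 had 0 reads of it, and the log2 fold change of -1.81 ± 0.51 (SE) became -1.19 without that mouse and -0.71 without the 4 gland-rich libraries. The counts behind these levels were 0 to 11 and 5 to 23 reads.

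Retsat, which saturates retinol (ENSMUSG00000056666, chromosome 6 from 72598475 to 72608425), was at -0.55, 0.01, 0.27, -2.19 and 0.28 log2 CPM in susceptible and 0.39, 0.75, 0.69, 0.86 and 1.23 in resilient mice. Susceptible mouse 4 was far below the others, and the log2 fold change moved from -1.22 ± 0.36 to -0.78 without it. Pomt2, a protein O-mannosyltransferase that glycosylates dystroglycan (ENSMUSG00000034126, chromosome 12 from 87106861 to 87147968), was at 1.58, 1.83, 1.03, 1.45 and 1.48 in susceptible and 2.57, 2.33, 1.83, 2.15 and 1.88 log2 CPM in resilient mice. The lowest resilient mouse lay only just above the highest susceptible mouse, the fold difference was 1.60, and it was not called without the 4 gland-rich libraries (log2 fold change -0.35) or on total-read scaling (-0.65).

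The long non-coding RNA B230217O12Rik (ENSMUSG00000097785, chromosome 19 from 57323193 to 57360775) separated the groups with little spread among resilient mice. Its levels were 0.14, 0.50, 0.87, 0.73 and 0.40 log2 CPM in susceptible and 1.30, 1.12, 1.37, 1.24 and 1.42 in resilient mice, means of 0.53 ± 0.29 and 1.29 ± 0.12 (SD, n = 5 each). The control mice spread over both ranges, from 0.48 to 1.66. Its log2 fold change stayed near -0.76 ± 0.22 (SE), at -0.97 without the 4 gland-rich libraries. The pseudogene Gm1840 also separated the groups, but on 0 to 2 reads in susceptible and 1 to 4 reads in resilient mice.

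Dnase2a and Slc29a1 were the most abundant of the genes named by the smallest p on the lower side. Dnase2a, the lysosomal nuclease that degrades the nuclei expelled by erythroid precursors (ENSMUSG00000003812, chromosome 8 from 84908560 to 84922915), was at 3.66, 3.71, 3.78, 3.86 and 4.06 log2 CPM in susceptible and 4.11, 4.19, 4.26, 3.98 and 4.14 in resilient mice. Resilient mouse 4 lay under susceptible mouse 5, and otherwise the groups were apart (log2 fold change -0.32 ± 0.11, SE; exact permutation p = 0.0159). Slc29a1, the equilibrative nucleoside transporter of red cells and other tissues, was at 2.72 ± 0.22 and 3.25 ± 0.28 log2 CPM (SD, n = 5 each; exact permutation p = 0.0238). Scaled to total reads, the call of Dnase2a was lost (-0.29).

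Enzymes of DNA repair and drug metabolism were among the remaining genes on this side. Tdg, the thymine DNA glycosylase of base excision repair, was at 1.58 ± 0.44 in susceptible and 2.18 ± 0.16 in resilient mice (SD, n = 5 each; exact permutation p = 0.0238), with control mice at 2.18 ± 0.16. Tpmt, which methylates thiopurines, was at -0.98 ± 0.59 and 0.10 ± 0.38 log2 CPM (exact permutation p = 0.0238). The potassium channel subunit Kcne3 (log2 fold change -1.10 ± 0.36, SE), the gamma-tubulin Tubg1 (-0.50 ± 0.17) and the antisense transcript E030037K01Rik (-1.29 ± 0.42) were lower too, as was the oxygenase Ogfod3, at -0.15 ± 0.89 in susceptible and 0.85 ± 0.31 log2 CPM in resilient mice (SD, n = 5 each; exact permutation p = 0.0556). Without the 5 libraries that carried acinar transcripts, which left a single susceptible mouse, Tdg turned to 0.07 and E030037K01Rik to 0.18. Each of the 24 genes with the smallest p, 12 on either side, kept its call when any single mouse was left out. Of the 34 called genes that the naming rule gives, 17 lost their call without the 4 gland-rich libraries. Among all 266 called genes, 94 kept their call in that fit. That fit kept only 2 susceptible mice, both with the title prefix EC3, and mouse 1 of them carried acinar transcripts. The reason for the lost calls was not tested.

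**Figure D3:**
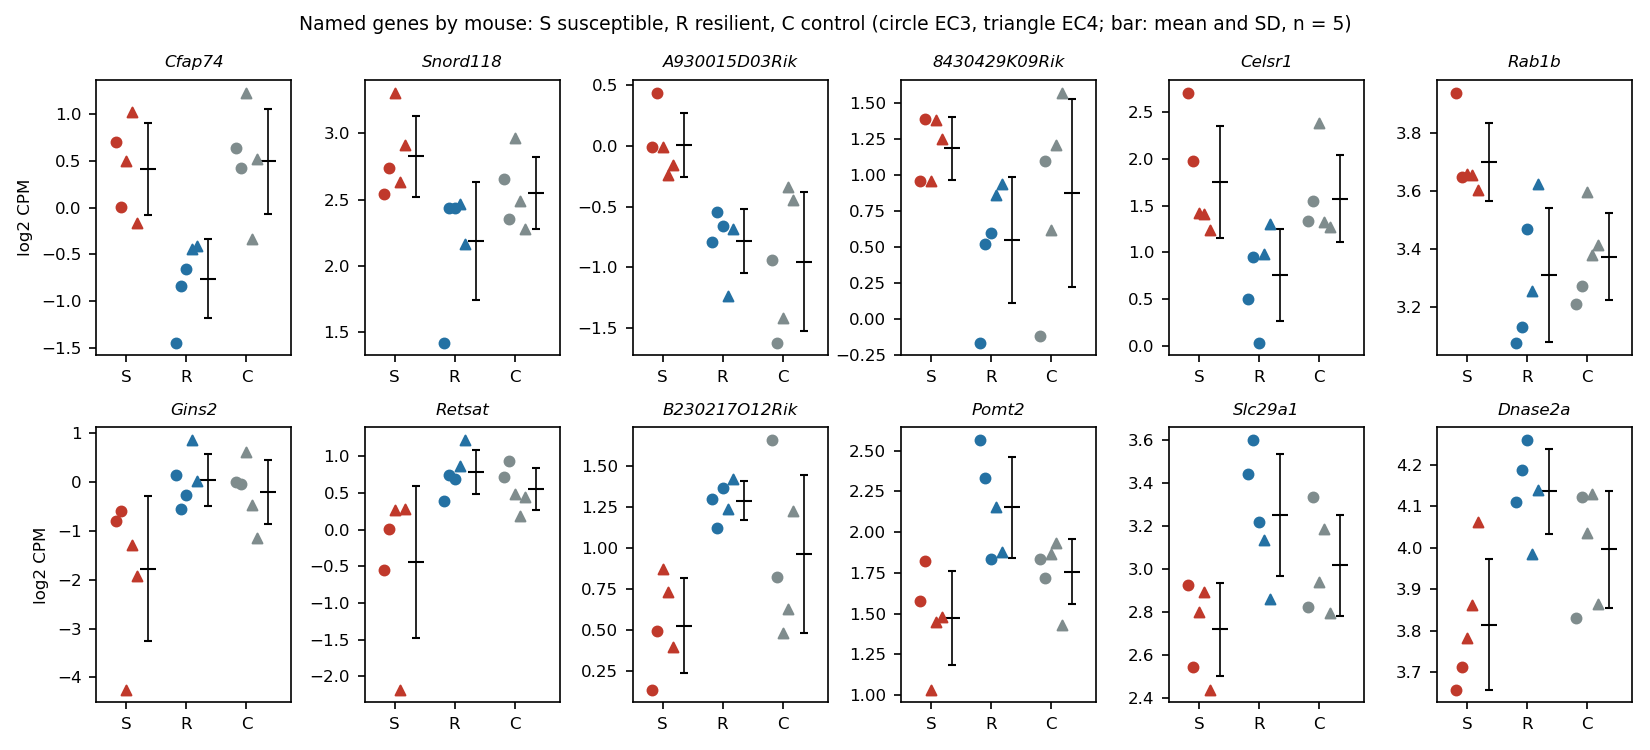
Log2 CPM (vertical axes) of 12 called genes in each of 5 susceptible (S), 5 resilient (R) and 5 control (C) B6 mice; circles are title prefix EC3, triangles EC4, and the bar beside each group is the mean and SD. The upper genes are higher and the lower genes lower in susceptible mice, and the control mice of Cfap74 lie with the susceptible mice.

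In a list of genes of cholesterol synthesis and uptake, 4 of 24 were called lower in susceptible blood, where 0.91% of all genes were called lower. It is a list that was drawn up after Lss had been seen to separate the groups. Lss, the lanosterol synthase, was at 2.43, 2.67, 1.89, 2.30 and 2.41 log2 CPM in susceptible and 3.06, 2.91, 2.80, 2.78 and 2.82 in resilient mice, with a log2 fold change of -0.53 ± 0.21 (SE). Its exact permutation p of 0.00794 only restates the separation for which it was picked, and Lss is among the 4 called members. Mvd (-0.58 ± 0.21), Mvk (-0.51 ± 0.23) and the sterol-regulated Tmem97 (-0.82 ± 0.28) were the other called members, and no member was called higher. Of the 24 genes 20 had a negative log2 fold change, with a median of -0.15.

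Markers of the blood cell types showed no shift between susceptible and resilient mice beyond the spread of the mice. The 26 lists, of blood cell types and also of response, growth, energy and other tissue genes, held 641 measured genes. Of these, 7 were called (1.09%, against 2.03% of all genes). In 22 lists none was called, and the mean level of every list overlapped between the groups. List medians of the log2 fold change ran from -0.38 for eosinophils and basophils to 0.32 for platelets.

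The 27 platelet genes all had a positive log2 fold change, between 0.23 and 0.67, and none was called. Their mean level was 8.61, 7.46, 8.69, 7.24 and 7.97 log2 CPM in susceptible and 7.82, 7.64, 8.14, 7.12 and 7.37 in resilient mice, so that susceptible mice 1 and 3 lay above the rest and the others were mixed. The adhesion receptor Selp (0.67 ± 0.34, SE), von Willebrand factor Vwf (0.65 ± 0.39) and the lipoxygenase Alox12 (0.60 ± 0.38) had the smallest p of the list. Genes of a single cell type move together, so the shared sign is 1 observation rather than 27.

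Red cell genes did not differ on average. The 30 erythroid genes had a median of -0.11 and the 10 heme synthesis genes of -0.12, with none called. Their spread between mice was wide: the erythroid list was at 8.93, 8.63, 9.75, 8.73 and 9.56 log2 CPM in susceptible and 9.87, 9.95, 9.38, 8.90 and 7.89 in resilient mice. Resilient mouse 5 was the lowest and resilient mouse 2 the highest of the 10.

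Myeloid lists pointed in different directions and none held a called gene. The 22 mature neutrophil genes had a median of 0.23, with Il1r2, the decoy receptor of interleukin 1, at 0.73 ± 0.37 (SE), and the list stood highest in susceptible mouse 1. The 14 granule precursor genes had a median of -0.29, with the chitinase-like Chil3 at -0.84 ± 0.53. For monocytes (22 genes) the median was -0.11, and for eosinophils and basophils (17 genes) it was -0.38, with Siglecf at -0.57 ± 0.34.

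Among lymphocytes the T cell list was the only one with called genes. Cd3e, the epsilon chain of the T cell receptor complex, was at 2.66, 2.14, 0.79, 0.94 and 1.18 log2 CPM in susceptible and -1.45, 0.08, 1.42, 0.98 and 1.28 in resilient mice. The costimulatory receptor Cd28 (log2 fold change 0.34 ± 0.15, SE) and the adaptor Lat (0.29 ± 0.14) were called as well, and 28 of the 30 T cell genes had a positive sign (median 0.20). These calls were not stable. Without resilient mouse 1, Cd3e went from 1.08 ± 0.47 to 0.60, Cd28 to 0.28 and Lat to 0.15, none of them called, and Cd3e also lost its call without resilient mouse 2 (0.98) or susceptible mouse 1 (0.80) or 2 (0.93). Cd28 lost its call without any of 5 single mice and Lat without any of 7. B cell genes (28, median -0.13), plasma cell genes (6, median -0.37, with Jchain at -0.60 ± 0.34) and NK and cytotoxic genes (27, median 0.14) held no called gene.

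Stress and immune response genes were flat on average over the mice of both title prefixes. The 39 interferon-stimulated genes had a median of -0.02, the 23 cytokine and NF-kB genes of 0.03, the 22 glucocorticoid receptor and target genes of 0.04, the 17 immediate early genes of 0.10 and the 16 clock genes of 0.03, and none of these genes was called. The largest log2 fold changes among their named members were those of Pdk4 (-1.03 ± 0.80, SE), a glucocorticoid-induced kinase of pyruvate metabolism, and the clock gene Per2 (0.66 ± 0.36).

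Few growth and energy genes were called. All 30 cell cycle genes had a negative log2 fold change (median -0.14), and 1 was called: Mcm5, a subunit of the MCM helicase, at 3.90, 4.39, 4.04, 4.05 and 4.02 log2 CPM in susceptible and 4.34, 4.60, 4.28, 4.59 and 4.37 in resilient mice. Susceptible mouse 2 alone lay inside the resilient range (log2 fold change -0.35 ± 0.13, SE; exact permutation p = 0.0317). Of 77 nuclear genes of the respiratory chain (median -0.06), the complex I subunit Ndufa5 was called lower (-0.48 ± 0.18) and its partner Ndufb2 higher (0.35 ± 0.14). Ndufa5 was not called without resilient mouse 1 (-0.37) or susceptible mouse 3 (-0.33), and Ndufb2 not without resilient mouse 4 (0.26) or susceptible mouse 4 (0.28).

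The 7 measured mitochondrially encoded genes had a median of -0.01 and the 36 proteasome genes of -0.06, with Psmd7 called lower (-0.28 ± 0.11, SE). For 80 cytosolic ribosomal protein genes, of which 77 had a negative sign, the median was -0.10 and none was called. Among mice with the title prefix EC4 alone (3 susceptible and 2 resilient), the signs were mostly positive for the cell cycle (26 of 30 genes), respiratory chain (59 of 77) and ribosomal protein lists (50 of 80). Within EC3 (2 susceptible and 3 resilient) they were mostly negative, with 0 of 30, 9 of 77 and 11 of 80 genes positive. Scaling to total reads moved the median log2 fold change of all genes from -0.01 to 0.03. The heat shock list (16 genes, median -0.11), the MHC class II list (10, -0.14), the dendritic cell list (10, -0.08), the blood progenitor list (7, -0.06) and a mixed list of muscle, brain, skin and fat genes that trunk blood could carry (19, -0.05) held no called gene.

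**Figure D4:**
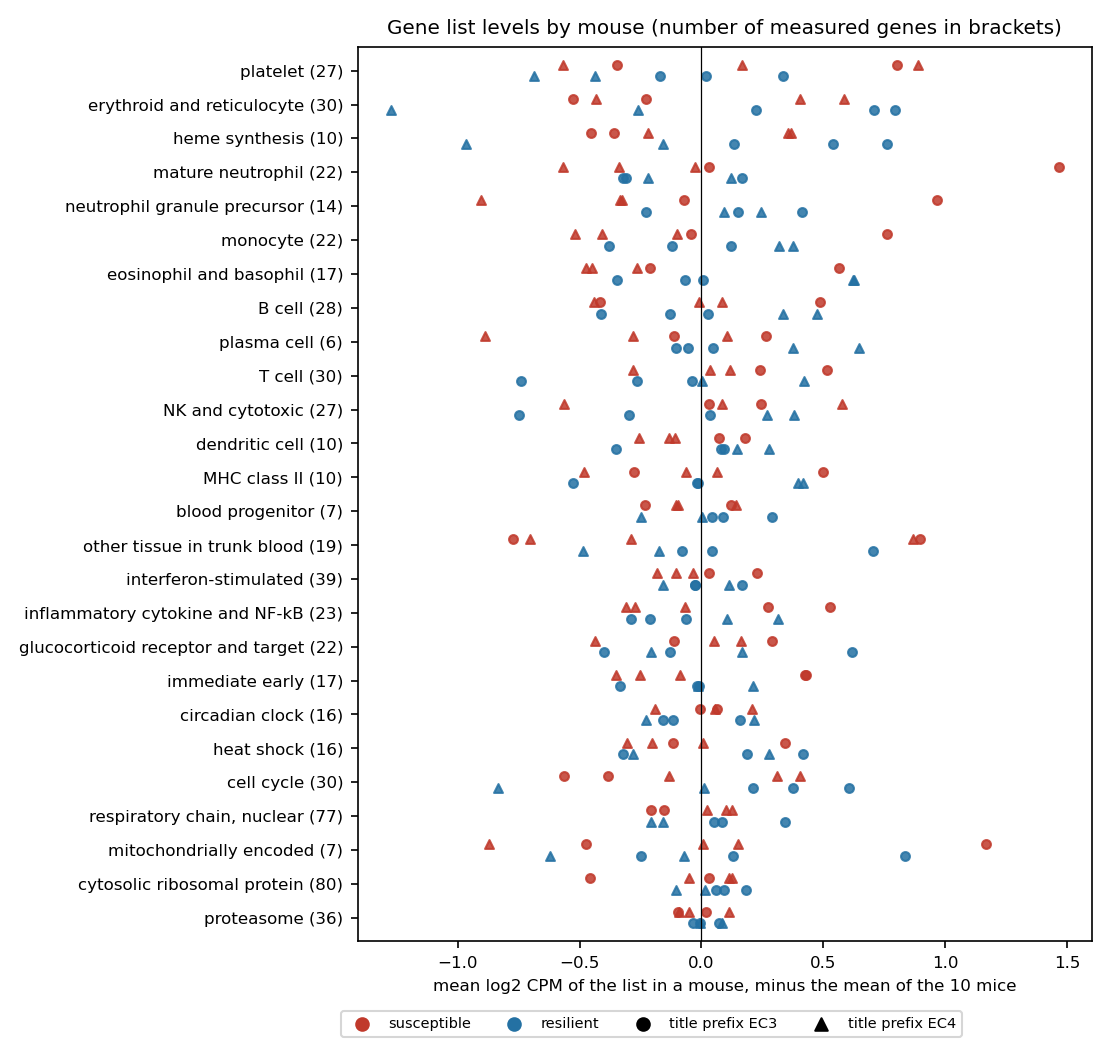
Mean log2 CPM of each of 26 gene lists in each defeated mouse, shown as the difference from the mean of the 10 mice (horizontal axis); red is susceptible, blue resilient, circles EC3 and triangles EC4. Red and blue points overlap in all 26 lists, and susceptible mouse 1 is the red circle far to the right among mature neutrophil genes.

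The flat averages held 2 opposite differences. The sample titles carry the prefixes EC3 (susceptible mice 1 and 2, resilient mice 1 to 3) and EC4 (susceptible mice 3 to 5, resilient mice 4 and 5), whose meaning is not given in the sources used here. By list medians, susceptible mice within EC3 had less red cell and cell cycle RNA and more leukocyte RNA than resilient mice, and within EC4 the reverse. The erythroid list had a median log2 fold change of -1.01 within EC3, with 0 of 30 genes positive, and of 0.94 within EC4, with 30 of 30 positive. The cell cycle list had medians of -0.94 and 0.69, the heme synthesis list of -0.91 and 0.76, the mature neutrophil list of 0.96 and -0.30, the monocyte list of 0.46 and -0.77 and the T cell list of 0.51 and -0.23. For the cytokine and NF-kB list they were 0.50 and -0.51, and for the immediate early list 0.55 and -0.39. Interferon-stimulated (0.19 and -0.22), glucocorticoid (0.17 and -0.12) and clock lists (0.12 and -0.05) differed less. Within EC3 the neutrophil and monocyte lists were high in susceptible mouse 1 (5.80 and 5.30 log2 CPM). Susceptible mouse 2 (4.36 and 4.50) lay inside the range of the EC3 resilient mice.

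Genome-wide, 2313 genes (17.7%) were called within EC3 and 2766 (21.1%) within EC4. Each count is from a separate limma fit of only the libraries with that prefix, control mice included. Among the called genes, 1258 were called in both, and all 1258 had opposite signs. Over all genes 25.3% had the same sign within both prefixes, and the log2 fold changes had a correlation of -0.55 across genes, which are not independent replicates. The test of the difference itself, an interaction of phenotype and prefix added after the data were seen, gave 4589 genes with an unadjusted p under 0.05 in limma (35.1%) and 2510 with an adjusted p under 0.05 (19.2%). These included 18 of 30 erythroid, 20 of 30 cell cycle, 7 of 10 heme synthesis and 10 of 30 T cell genes. Other leukocyte lists held fewer, with 5 of 22 monocyte, 4 of 22 mature neutrophil, 1 of 28 B cell and 0 of 27 NK and cytotoxic genes. Of the response lists, 12 of 39 interferon-stimulated, 6 of 17 immediate early and 4 of 23 cytokine and NF-kB genes passed. For glucocorticoid receptor and target genes it was 1 of 22, and for clock genes 1 of 16. The respiratory chain and ribosomal protein lists held 22 of 77 and 21 of 80. Of the 18 submandibular gland genes 17 passed, with medians of -3.84 within EC3 and 9.74 within EC4. That list was drawn up after its high levels in EC4 susceptible mice and an EC3 resilient mouse were seen, so its count here was set by that choice.

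The 2 genes with the smallest adjusted p are named here after their values were seen. The smallest adjusted p belonged to Rragd, a Rag GTPase of nutrient sensing, with a log2 fold change of -1.41 within EC3 and 1.29 within EC4 (difference 2.70 ± 0.40, SE; adjusted p = 0.00628 from limma). Ift140, a component of intraflagellar transport at 7.74 log2 CPM on average, had -1.04 and 1.01 (difference 2.06 ± 0.31, adjusted p = 0.00628 from limma). In the pooled comparison these genes had -0.04 and -0.09.

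The number of genes past the threshold of this interaction depended on single libraries. Without resilient mouse 5, which leaves 1 resilient mouse in EC4 that is assumed to vary like the mice of the other groups, 9 genes were left at an adjusted p under 0.05 in place of 2510. That mouse had the lowest erythroid (7.89 log2 CPM) and cell cycle (4.35) levels of the 10 and the highest ratio of scaled library size to reads (1.47, against 0.64 to 1.16 in the other defeated mice). Without susceptible mouse 1 the count was 952, without susceptible mouse 3 it was 988, without susceptible mouse 5 it was 1616, and without any other single mouse it was between 1678 and 3250. The other resilient EC4 mouse, mouse 4, had erythroid (8.90) and cell cycle (5.19) levels inside the ranges of the EC4 susceptible mice (8.73 to 9.75 and 5.05 to 5.59). With 2 or 3 mice in each cell of this design, a prefix and the mice that carry it cannot be told apart.

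**Figure D5:**
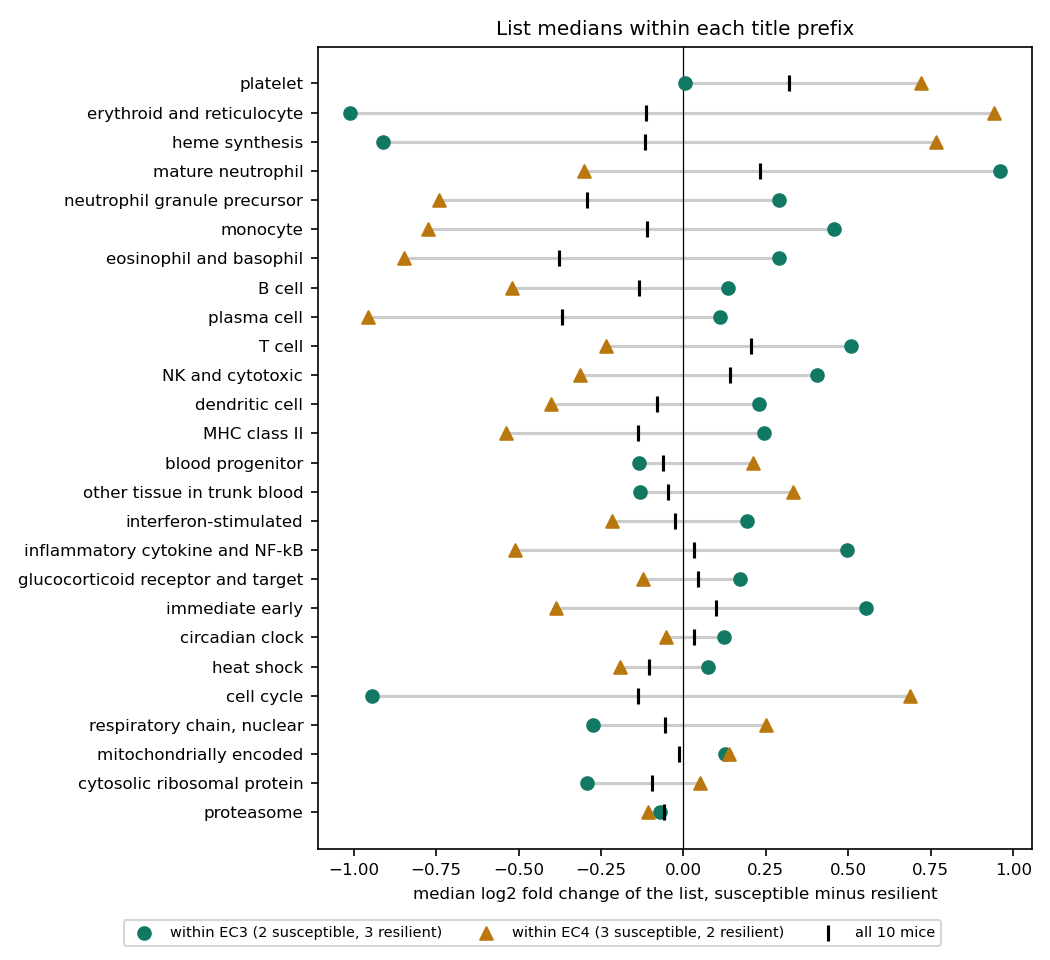
Median log2 fold change, susceptible minus resilient, of each of 26 gene lists (horizontal axis) within the 5 EC3 mice (circles), within the 5 EC4 mice (triangles) and over all 10 mice (ticks). The erythroid list runs from -1.01 to 0.94 and the cell cycle list from -0.94 to 0.69, with the pooled medians near 0.

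In the small RNA libraries made from the same mice, none of the measured blood cell miRNAs on the list was called. The red cell miRNA miR-451a was at 18.49, 18.59, 18.18, 18.44 and 18.32 log2 CPM in susceptible and 18.07, 18.35, 17.99, 18.65 and 18.29 in resilient mice, a log2 fold change of 0.13 ± 0.18 (SE). Of the 15 blood cell miRNAs listed, 10 were measured. Not measured were miR-144-3p, miR-223-3p, miR-126a-3p, miR-142a-3p and miR-181a-5p, so miR-223, miR-142a and miR-144 were represented by their 5p forms only. Over 299 miRNAs, 9 were called (3.01%), 8 higher (2.68%) and 1 lower (0.334%). None had an adjusted p under 0.05 (smallest 0.993 from limma) and none separated the groups completely.

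The sequences below are RefSeq mature miRNAs, with bases 2 to 8, the seed that pairs with target mRNAs, in capitals. The first 4 are shown because they were highest in the libraries richest in gland transcripts, and the last 3 because they are the called miRNAs of highest level.
miR-200a-5p: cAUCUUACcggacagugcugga
miR-200b-5p: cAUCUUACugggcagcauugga
miR-182-5p: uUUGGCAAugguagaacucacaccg
miR-96-5p: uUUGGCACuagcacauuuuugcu
miR-744-5p: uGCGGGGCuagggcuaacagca
miR-345-5p: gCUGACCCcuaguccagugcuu
miR-30c-5p: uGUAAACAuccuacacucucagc

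The epithelial miR-200a-5p and miR-200b-5p share the seed AUCUUAC. In susceptible mice 1 to 5 miR-200a-5p was at 0.34, -0.02, 2.11, 3.52 and 1.02 log2 CPM, and in resilient mice 1 to 5 at 3.22, -1.17, 1.06, -1.22 and 0.08. It was thus highest in susceptible mouse 4 and resilient mouse 1, the 2 libraries with the most submandibular gland mRNA. In the same mice miR-182-5p was at 7.26, 7.06, 8.18, 9.39 and 7.60 in susceptible and 9.71, 7.12, 7.15, 6.33 and 7.52 in resilient mice, again highest in these 2 mice. The gland-rich libraries did not all stand apart: miR-200a-5p in susceptible mouse 5 (1.02) lay below that in resilient mouse 3 (1.06), and miR-96-5p in susceptible mice 3 and 5 (2.89 and 3.00) below that in resilient mouse 5 (3.30). None of these 4 miRNAs, which were chosen because of their levels in these libraries, was called (miR-200a-5p 1.00 ± 0.77 and miR-182-5p 0.33 ± 0.57, log2 fold change and SE). Of the called miRNAs, miR-141-5p was highest in all 4 gland-rich libraries. It was at 1.65, 1.14 and 1.02 log2 CPM in susceptible mice 3, 4 and 5 and 1.15 in resilient mouse 1. The highest of the other defeated mice was susceptible mouse 1 (0.85).

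The called miRNAs of higher level differed by less than those of lower level. At the highest level, miR-744-5p was at 8.85, 9.17, 9.19, 9.18 and 9.44 log2 CPM in susceptible and 8.83, 8.82, 8.60, 8.90 and 8.91 in resilient mice, so that susceptible mouse 1 alone lay in the resilient range (log2 fold change 0.35 ± 0.17, SE). The means of miR-345-5p were 4.28 ± 0.28 in susceptible and 3.77 ± 0.33 in resilient mice, and those of miR-30c-5p were 3.49 ± 0.25 and 3.02 ± 0.18 (SD, n = 5 each). For miR-181b-5p they were 1.80 ± 0.47 and 1.15 ± 0.30, with control mice at 1.07 ± 0.44. The other called miRNAs were near the lower end of the table, with miR-143-5p (1.89 ± 0.74, SE), miR-6516-5p (1.23 ± 0.45), miR-296-5p (1.04 ± 0.44) and miR-141-5p (0.75 ± 0.36) higher and miR-5620-5p (-1.32 ± 0.47) lower.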

How the data were processed

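Blood mRNA was measured by RNA sequencing in 25 libraries, 15 from B6 and 10 from D2 mice, and the comparison used the 10 libraries of susceptible and resilient B6 mice. Per the study's methods, the authors depleted globin and ribosomal RNA, sequenced stranded libraries as single-end 75-base reads, aligned them with STAR to GRCm38, counted exons with HTSeq and kept genes with at least 1 CPM in at least 6 samples. The deposited values are log2 CPM made by the authors with voom, with 0.5 reads added to each count and library sizes scaled for composition. Multiplying back by the scaled library sizes gave whole reads to within 0.0001 reads. No batch correction is stated for blood. The blood miRNA table (299 miRNAs) also holds deposited log2 CPM. Positions are from GENCODE M21, which held 13054 of the 13084 genes.

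The log2 values were fitted with limma 3.58.1 (R 4.3.3; moderated with a mean-variance trend) over all 25 libraries in 5 groups, with Benjamini-Hochberg adjustment over all genes, and a gene was called when its unadjusted p lay below 0.05 and its fold change reached 1.2. Single genes were also tested by a two-sided exact permutation test over the 252 divisions of the 10 mice. The fit was tested on simulated data. Mice are separate animals, and no 2 libraries of a group agree within sampling noise (lowest chi-square per gene 20.1). Reads per library ranged from 9751603 to 15878495. 

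Genes named were the 12 called genes with the smallest p in each direction, the 5 called genes with the largest fold in each direction among those whose groups do not overlap, every called member of a list, and the 3 members of each list with the smallest p, of which the text prints a selection. The comparison and the 26 lists were chosen with earlier results of these data known. The salivary, airway, muscle, keratin and cholesterol lists, the epithelial miRNAs, the fits without or adjusted for gland-rich libraries or for blood cell levels, and the interaction with title prefix were added after the data were seen. A list is described by its counts and median, without a test. Some list members are not reported here by name. For 2 D2 libraries the column name disagrees with the phenotype label. The labels were kept, and a fit on the 15 B6 libraries leaves those libraries out. Figures were drawn with matplotlib 3.10.9. miRNA sequences are from RefSeq, which held 20 of the 24 miRNAs looked up.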

Additional observations from a re-analysis of the deposited data

Results flagged for a closer look

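Among 132 groups of 5 mice, 10 held a mouse whose gap to its neighbor was over 0.71 of the group's range (Dixon's 95% critical value). Chance gives such a mouse in about 1 in 20 groups. Resilient mouse 1 was such a mouse in 5 of them: submandibular gland list 6.578 log2 CPM (others -4.42 to -3.42), acinar list 5.855 (others -4.30 to -3.81), keratin and junction list 3.204 (others -3.02 to -1.50), Snord118 1.42 (others 2.17 to 2.47) and Ndufa5 3.719 (others 3.13 to 3.25). Resilient mouse 5 was high in 1700048O20Rik, at -0.1844 (others -2.67 to -2.04), and in Tubg1, at 2.623 (others 2.25 to 2.33). Susceptible mouse 2 was low in the acinar list, at -4.766 (others 2.72 to 4.13), and high in the eosinophil and basophil list, at 2.369 (others 1.33 to 1.59). Susceptible mouse 1 was high in Rab1b, at 3.94 (others 3.60 to 3.66).

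The difference between susceptible and resilient mice itself differed between the title prefixes EC3 and EC4 in 2510 genes (adjusted p under 0.05, interaction in limma), 2507 of them with opposite signs, and in 9 genes without resilient mouse 5.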

How the results depend on the processing

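The number of called genes, 266, was 163 in a fit of the 15 B6 libraries, 121 with the 10 libraries alone, 102 on total reads, 114 and 17 among genes of at least 2 and 4 log2 CPM, 2313 within EC3, 2766 within EC4, 791 without the 4 gland-rich libraries, 521 with the submandibular level as a term, 474 with erythroid and neutrophil levels as terms, and 220 (without resilient mouse 2) to 499 (without resilient mouse 1) when 1 mouse was left out. It was within 1.5 times in the other alternatives. The fit without the 4 gland-rich libraries kept 2 susceptible mice, both EC3, and mouse 1 of them carried acinar transcripts. The 8 genes with an adjusted p under 0.05 in limma within EC4 were the only ones in any fit of the groups. They included the keratin Krt8 (log2 fold change 6.45 within EC4, -1.79 within EC3), Ripk4, Mal2 and Wdr72, and all 8 had a negative sign within EC3. Within EC4 every susceptible library was gland-rich and no resilient one was, so phenotype and gland transcripts cannot be told apart there.

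Of the 7 called list members, the count was 4 with the 15 B6 libraries, 0 on total reads, 3 at 4 log2 CPM or above, 146 within EC3, 152 within EC4, 38 without the 4 gland-rich and 13 without the 5 acinar-rich libraries, 35 with the submandibular and 18 with the acinar level as a term, 18 with the blood cell terms, and 4 to 27 with 1 mouse left out. The lists held 641 measured genes. Of all genes, 2.03% were called in the main fit, 17.7% within EC3 and 21.1% within EC4. Without the gland-rich libraries the share of all genes was 6.05%, so the count of list members rose along with that of all genes. The 9 called miRNAs became 19 without the gland-rich libraries and 5 to 15 with 1 mouse left out. The 2510 interaction genes became 1587 with the 10 libraries alone, 7026 on total reads and 9 to 3250 with 1 mouse left out. Tdg (0.0661) and E030037K01Rik (0.18) turned without the acinar-rich libraries, and Cd28 (-0.21) and Cd3e (-0.16) within EC4. Of 933 single-gene values under an alternative, 754 kept direction and call, 175 lost the call and 4 turned. The 2 filters test fewer genes, and for the other changes the cause was not tested.

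No paired analysis was possible because replicate numbers were given in accession order and pair no mice. Levels under 2 log2 CPM rest on few reads, where a single mouse can set a fold change.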
